A study of Homo sapiens with 8 samples.

Results

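The genes described here encode the nuclear subunits of the mitochondrial respiratory chain and of ATP synthase, complexes I to V. Members were chosen by gene symbol in the platform annotation, with no measured value: symbols that start with NDUFA, NDUFB, NDUFC, NDUFS, NDUFV, UQCR, ATP5 or COX4 to COX8, together with SDHA, SDHC, SDHD and CYC1, without assembly factors and pseudogenes. This gave 112 of 47323 probes on the array, for 84 genes. Of these, 94 probes of 74 genes had a detection p under 0.05 on at least 2 arrays and were tested among 11031 genes. By complex the tested members were 33 genes of complex I, 3 of complex II, 9 of complex III, 11 of complex IV and 17 of complex V, with COX7A2L counted in no complex.

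Human liver cells were cultured for 5 days in 3 formats, and RNA of each culture was read on an Illumina HumanHT-12 v4 bead array, which measures brightness in 1 colour. The 3DBR group (2 arrays) grew in a microporous polycarbonate scaffold, the MatriGrid, inside a bioreactor perfused by a peristaltic pump. The 3D group (3 arrays) grew in the same scaffold without flow, placed in the wells of a plate, and the 2D group (3 arrays) grew as a monolayer. A monolayer was started from 0.25 of a scaffold's cell number, and against 2D the roles of format and seeding cannot be told apart. By the design text perfused cultures numbered 3, and arrays of 2 are analysed here. Neither genotype nor drug treatment differs between the groups by the labels. The submitters' labels conflict: the characteristics give the liver cancer line HepG2, while the design text and source name give hepatocytes, from 3 donors. No label ties a culture to a donor.

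Arrays differed within the formats as well as between them. On 3D replicate 1 and 2D replicate 1, a list of 14 macrophage genes averaged 7.06 and 7.05 on the log2 scale, against 9.21 to 10.6 on the other 6 arrays, with 4 and 7 of the 14 detected against 13 or 14. Genes of dividing cells went the other way, at 9.42 on 3D replicate 1, 9.94 on 2D replicate 1 and between 6.79 and 7.47 elsewhere. A list of 9 hepatocyte genes moved with the formats: it averaged 13.7 and 13.5 in 3DBR, 13.5, 13.4 and 14.0 in 3D, and 11.7, 13.2 and 12.8 in 2D, so all scaffold arrays lay above all 2D arrays. Its median log2 fold change against 2D was 0.97 in 3DBR and 0.83 in 3D, with 8 of 9 genes higher in each and 0 called by limma, and its part in the subunit results was not tested. ALB, the albumin gene, lay between 15.6 and 15.8 on all 8 arrays. Macrophage transcripts do not belong to a hepatoma line, so 6 arrays go against the HepG2 label, and the samples are called liver cell cultures here. Stellate cell genes were also low on 3D replicate 1 and 2D replicate 1, at 7.13 and 6.98 against 8.86 to 10.0 elsewhere. For those arrays the label stays unsettled, and the 3D and 2D groups may each mix kinds of cells. The nearest array by correlation across genes was of another group for 7 of 8 arrays. The arrays sat on 2 chips: both 3DBR arrays and 3D replicate 1 on the one, all others on the other, so 3DBR and 2D shared no chip. Only the 3D group spanned both chips, so a chip term in the model rests on 3D replicate 1 against the other 3D arrays. The chip and the traits of that array cannot be told apart.

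The respiratory chain sits in the inner membrane of mitochondria. Complexes I (NADH dehydrogenase) and II (succinate dehydrogenase) pass electrons to ubiquinone, complex III passes them to cytochrome c, and complex IV (cytochrome c oxidase) passes them to oxygen. Complexes I, III and IV pump protons, and complex V (ATP synthase) uses the returning protons to make ATP. Most subunits are encoded in the nucleus, while a small set of core subunits comes from mitochondrial DNA and was not analysed here, nor were SDHB and UQCRFS1. In the liver this chain supplies the ATP for urea synthesis, gluconeogenesis and protein secretion.

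Nuclear genes for these subunits are known to share promoter elements bound by NRF1, GABPA (also called NRF2) and YY1. RefSeq promoters (GRCh38.p14) were matched by gene ID for 62 of the 74 tested members, and the 250 bases before the start were searched on both strands. The NRF1 letters (GCGCA, any base, then GCGC) stood in 13 of 62 member promoters (21%), against 5.07% of 35116 promoters of the same length. CCGGAAG, the core letters used for GABPA, stood in 15 (24.2%) against 8.52%, and AAGATGGC, used for YY1, in 1 (1.61%) against 1.36%. At least 1 of the 3 was present in 26 member promoters (41.9%), against 13.9% of all. The 35116 promoters were not limited to tested genes or to 1 per gene, as the member promoters were. The NRF1 and GABPA letters do not overlap in the promoters shown, and a match describes letters, not binding.

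Promoters are shown for a member each of complexes I, III, IV and V whose 3D arrays all lay below the 2D arrays. They were picked only among members with an NRF1 or GABPA match. Matches are in capitals, read 5′ to 3′ on the gene's strand. They are NDUFA12 at chr12:95003698-95003947 (minus strand, NRF1), UQCR11 at chr19:1605463-1605712 (minus strand, NRF1 and GABPA), COX6B1 at chr19:35648073-35648322 (plus strand, GABPA) and ATP5PO at chr21:33915805-33916054 (minus strand, NRF1). UQCR10 at chr22:29767119-29767368 (plus strand) lay below 2D as well and holds none of the 3 letter strings in this window. Of the members below 2D in 3D that are not shown, NDUFA1, NDUFA3 and NDUFA11 hold a match. NDUFA2, NDUFB1, NDUFB3, COX7A2, COX7A2L, ATP5F1E, ATP5MG and ATP5PB hold none. NDUFS5, ATP5F1B, ATP5MC3 and ATP5MF also lay below 2D in 3D, but no promoter was matched for them and they were not searched.
NDUFA12: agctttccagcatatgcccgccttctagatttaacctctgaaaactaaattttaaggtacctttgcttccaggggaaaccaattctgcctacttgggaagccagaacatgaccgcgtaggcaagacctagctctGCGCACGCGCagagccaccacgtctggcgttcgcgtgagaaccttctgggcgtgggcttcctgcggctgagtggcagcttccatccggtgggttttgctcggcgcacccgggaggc
UQCR11: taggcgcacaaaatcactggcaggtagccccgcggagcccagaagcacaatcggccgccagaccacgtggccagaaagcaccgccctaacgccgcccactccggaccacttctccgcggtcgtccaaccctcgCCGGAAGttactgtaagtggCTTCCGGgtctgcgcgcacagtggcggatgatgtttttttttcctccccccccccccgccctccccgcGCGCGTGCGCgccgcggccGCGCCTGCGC
COX6B1: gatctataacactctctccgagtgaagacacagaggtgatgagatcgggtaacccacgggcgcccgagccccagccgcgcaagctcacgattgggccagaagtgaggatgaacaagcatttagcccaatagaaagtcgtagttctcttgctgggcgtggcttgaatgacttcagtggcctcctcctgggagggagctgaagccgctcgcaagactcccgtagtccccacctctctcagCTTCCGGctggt
ATP5PO: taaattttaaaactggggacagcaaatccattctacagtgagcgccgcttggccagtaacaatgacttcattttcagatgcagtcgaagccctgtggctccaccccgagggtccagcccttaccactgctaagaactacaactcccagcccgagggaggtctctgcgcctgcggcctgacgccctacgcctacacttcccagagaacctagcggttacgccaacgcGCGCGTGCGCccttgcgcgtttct
UQCR10: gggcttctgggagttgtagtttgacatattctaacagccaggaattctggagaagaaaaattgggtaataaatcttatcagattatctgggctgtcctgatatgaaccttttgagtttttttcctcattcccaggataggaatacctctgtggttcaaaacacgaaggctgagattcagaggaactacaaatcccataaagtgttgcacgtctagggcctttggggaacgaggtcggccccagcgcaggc

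The mean log2 level over the 74 genes was 11.27 and 11.37 on the 3DBR arrays, 11.23, 11.27 and 11.32 on the 3D arrays, and 11.55, 11.45 and 11.57 on the 2D arrays. All 5 scaffold arrays lay below all 3 monolayer arrays, and the ranges of 3DBR and 3D overlapped. Group means were 11.32 ± 0.07 in 3DBR (SD, n = 2), 11.27 ± 0.04 in 3D and 11.52 ± 0.06 in 2D (SD, n = 3 each). In bulk RNA, fewer cells of a type and less RNA per cell cannot be told apart. Complex V and complex I had the same arrangement, with every scaffold array below every 2D array, and so did complex III, whereas complexes II and IV overlapped between formats.

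**Figure D1:**
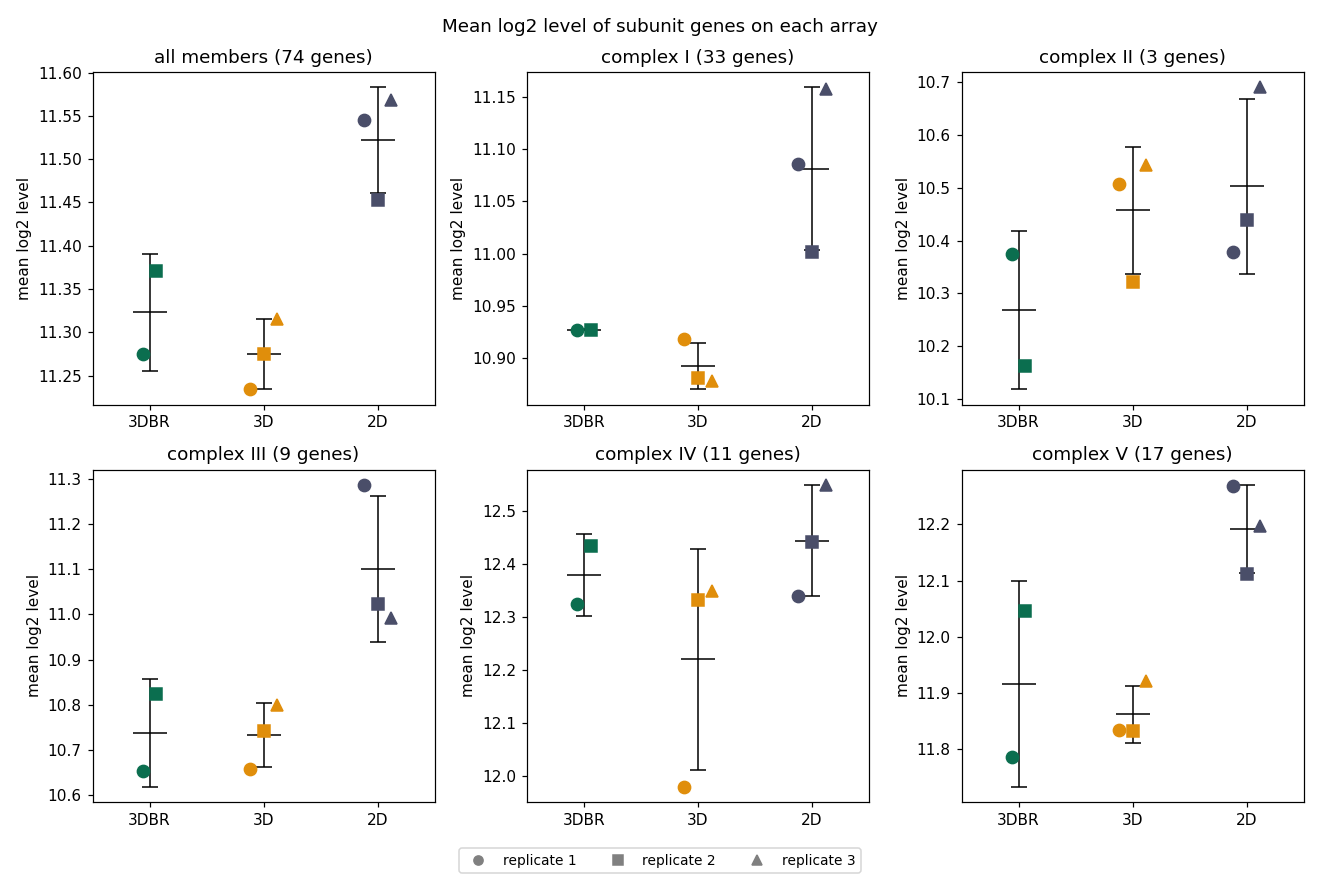
Mean log2 level of the subunit genes on each array, for all 74 members and for complexes I to V, with the scale of the y axis set per panel. Points are arrays, the horizontal line is the group mean and the bars are ±1 SD. For all members, all 5 scaffold arrays (11.23 to 11.37) lie below the 3 monolayer arrays (11.45 to 11.57), while complexes II and IV overlap.

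In 3DBR against 2D, the perfused scaffold with the monolayer, 59 of 74 members had a lower level, where 49.1% of all genes did. The median log2 fold change was -0.16 over the members and 0.01 over all genes tested. No member passed limma's adjusted p of 0.05: the smallest adjusted p was 0.964, and 0.00907% of all genes (1 of 11031, CYP3A4, a drug-metabolising cytochrome P450) were called. At an unadjusted p under 0.05 there were 5 members, all lower (NDUFB3, NDUFB9, UQCRH, ATP5F1C and ATP5PO), against 4.23% of all genes (1.72% lower and 2.51% higher). That count was 0 without 2D replicate 1, 1 without 3DBR replicate 2, 2 without 3DBR replicate 1 and 1 with chip as a block. Both 3DBR arrays lay below all 2D arrays for 20 of 74 members, where 10.1% of all genes did, and above them for 4 (NDUFB1, NDUFS7, COX6A2 and COX6C), where 10.8% did.

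In 3D against 2D, the static scaffold with the same monolayer arrays, 61 of 74 members had a lower level, where 49.9% of all genes did. The median log2 fold change was -0.21 over the members and 0.00 over all genes. Called genes were 0% of all genes and 0 members by limma, with a smallest adjusted p of 0.94 among members. At an unadjusted p under 0.05 there were 7 members, all lower (NDUFA1, NDUFA12, NDUFB3, UQCR10, UQCRH, COX7A2L and ATP5MC3), against 4.7% of all genes (2.07% lower and 2.64% higher). That count was 2 without 2D replicate 1, 4 without 3D replicate 1 or without 3D replicate 3, and 14 to 15 with median scaling, the authors' processed values or array weights. All 3D arrays lay below all 2D arrays for 20 members (5.18% of all genes) and above them for 0 (4.96% of all genes). Scaling arrays to a common median in place of quantiles gave members a median of -0.41 with 72 of 74 lower, but it also moved all genes to -0.13, with 65.1% lower.

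Because 3DBR and 3D were set against the same 2D arrays, their lists of lower members are not independent. Members below every 2D array on all 3DBR and all 3D arrays were 9, where 2.28% of all genes were, and members above every 2D array on all of them were 0, where 2.58% of all genes were. The 9 were NDUFA2, NDUFA3 and NDUFB3 of complex I, UQCR10 of complex III, COX6B1 of complex IV, and ATP5F1E, ATP5MF, ATP5MG and ATP5PO of complex V. This holds for the brightest probe of each gene: for UQCR10, ATP5MF and ATP5MG, dimmer kept probes overlapped 2D.

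In 3DBR against 3D, flow with no flow in the same scaffold, 25 of 74 members had a lower level and 49 a higher one, where 49.8% of all genes were lower, and the medians were 0.09 over members and 0.00 over all genes. No member passed limma's test (smallest adjusted p of 1), and 0.00907% of all genes, 1 of 11031, were called (again CYP3A4). At an unadjusted p under 0.05 there were 2 members, NDUFB1 and ATP5MC3, both higher, against 1.88% of all genes (0.752% lower and 1.12% higher). Both were detected on no 3D array, so a filter for probes detected on all 8 arrays removes them, and the count there was 0. It was also 0 without 3D replicate 2 and without 3D replicate 3. With array weights, or without both 3D replicate 1 and 2D replicate 1, the count was 5, and with chip as a block it was 6. Both 3DBR arrays lay above all 3D arrays for 11 members (8.95% of all genes) and below them for 4 (8.31% of all genes). The median over members was -0.01 without 3DBR replicate 2, and 0.12 without 3DBR replicate 1. Median scaling gave 0.26 for the members and 0.12 for all genes.

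**Figure D2:**
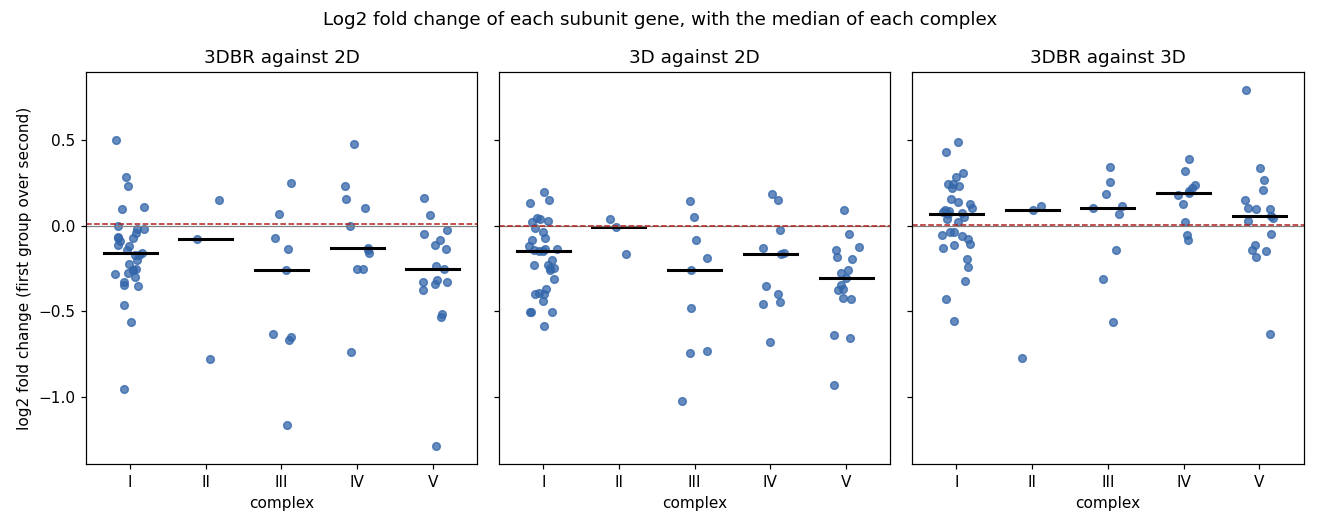
Log2 fold change of each tested subunit gene by complex, in 3DBR against 2D, 3D against 2D and 3DBR against 3D. Each point is a gene, the black bar is the median of the complex and the dashed line is the median of all genes tested. In 3D against 2D the complex medians run from -0.31 (complex V) to -0.01 (complex II).

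Leaving out 3D replicate 1 and 2D replicate 1 together, the arrays low in macrophage genes and high in genes of dividing cells, gave member medians of -0.18 for 3DBR against 2D, -0.23 for 3D against 2D and 0.07 for 3DBR against 3D. A block for chip in the model gave -0.22, -0.24 and 0.08 in the same order. Its chip term rests on 3D replicate 1 against the other 3D arrays. With that block 49 of 74 members were lower in 3DBR against 2D, while all genes had a median of -0.07 with 53.6% lower. The part of cell makeup in single genes was not tested.

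Complex I, the entry point for electrons from NADH, was lower for 28 of 33 genes in 3DBR and 26 of 33 in 3D against 2D, with medians of -0.16 and -0.15. Between 3DBR and 3D its median was 0.07, with 13 of 33 lower. The mean level of its genes was 10.93 and 10.93 in 3DBR, 10.92, 10.88 and 10.88 in 3D, and 11.09, 11.00 and 11.16 in 2D. NDUFB3, an accessory subunit of the membrane arm, had 12.11 and 12.28 in 3DBR, 12.13, 12.21 and 12.12 in 3D, and 12.86, 12.55 and 12.55 in 2D. All scaffold arrays thus lay below all 2D arrays, with 2D replicate 1 the highest. The log2 difference was -0.46 (SE 0.20) for 3DBR and -0.50 (SE 0.18, 95% interval -0.91 to -0.09) for 3D, with limma's adjusted p at 0.964 and 0.94. Its 2 probes gave the same differences.

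NDUFB9, another accessory subunit of the membrane arm, had 8.66 and 8.08 in 3DBR, 8.85, 8.97 and 8.95 in 3D, and 9.64, 9.65 and 8.67 in 2D. The 3DBR arrays were the lowest of the 8, by a narrow margin to 2D replicate 3. It differed by -0.95 (SE 0.36) in 3DBR against 2D and by -0.55 (SE 0.36) in 3DBR against 3D, and the value against 3D was -0.26 without 3DBR replicate 2. NDUFA12, an accessory subunit beside the matrix arm, had 11.44 and 11.87 in 3DBR, 11.40, 11.44 and 11.39 in 3D, and 11.94, 11.77 and 12.02 in 2D. The 3D arrays lay close together and below the 2D arrays, with 3DBR replicate 1 level with them. It differed by -0.50 (SE 0.19) in 3D against 2D. NDUFA1, a small membrane subunit needed for assembly, had 12.35, 12.75 and 12.65 in 3D and 12.88, 13.20 and 13.18 in 2D, also with no overlap, while 3DBR at 12.90 and 13.13 lay inside the 2D range.

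Subunits of the electron path of complex I were mixed. NDUFS7, an iron-sulfur subunit next to the ubiquinone site, had 11.84 and 12.07 in 3DBR, 11.61, 11.61 and 11.72 in 3D, and 11.03, 11.53 and 11.80 in 2D. The 3DBR arrays lay above all others, and 2D replicate 1 was the lowest. It differed by 0.50 (SE 0.26) in 3DBR against 2D, and by 0.29 without 2D replicate 1. In 3D against 2D it differed by 0.20 (SE 0.23), and by -0.01 without 2D replicate 1. NDUFV1, the flavin-bearing subunit that takes electrons from NADH, had 11.88 and 12.05 in 3DBR, 11.77, 11.74 and 11.65 in 3D, and 11.26, 11.81 and 11.97 in 2D. NDUFS1, the largest iron-sulfur subunit, had 7.22 and 7.00 in 3DBR, 7.28, 6.99 and 6.86 in 3D, and 7.33, 7.55 and 6.94 in 2D. NDUFV1 and NDUFS1 overlapped 2D in both comparisons, with NDUFV1 at 0.28 in 3DBR and 0.04 in 3D, and NDUFS1 at -0.16 (SE 0.27) in 3DBR and -0.23 (SE 0.24) in 3D.

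NDUFV3, an accessory subunit of the NADH-binding module, had 7.70 and 7.92 in 3DBR, 7.52, 7.66 and 7.41 in 3D, and 8.07, 7.47 and 8.80 in 2D. Its difference of -0.58 (SE 0.34) in 3D against 2D was the most negative in complex I, with 2D replicate 3 far above the others and overlapping groups, and it was -0.24 without that array. NDUFB1, a small membrane subunit, had 7.14 and 7.01 in 3DBR, 6.64, 6.55 and 6.55 in 3D, and 6.88, 6.77 and 6.86 in 2D. It was detected on no 3D array, so the level in 3DBR is given as at least 1.15-fold higher than in 3D (fitted log2 difference 0.49, SE 0.20, limma adjusted p of 1).

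Complex II feeds electrons from succinate, an intermediate of the citric acid cycle, into the chain. Its 3 measured genes had medians of -0.08 in 3DBR and -0.01 in 3D against 2D, and 0.09 between 3DBR and 3D. SDHA, the flavoprotein that oxidises succinate, had 11.34 and 11.71 in 3DBR, 11.79, 11.09 and 11.35 in 3D, and 11.11, 11.30 and 11.71 in 2D. SDHC, a membrane anchor, had 11.04 and 11.00 in 3DBR, 11.02, 10.86 and 10.90 in 3D, and 10.72, 11.02 and 11.55 in 2D. Neither separated the formats: the differences against 2D were 0.15 (SE 0.29) and 0.04 (SE 0.26) for SDHA and -0.08 (SE 0.27) and -0.17 (SE 0.24) for SDHC, for 3DBR and 3D in that order. With chip as a block SDHA in 3DBR turned to -0.42. The second membrane anchor, SDHD, had 8.75 and 7.78 in 3DBR, 8.71, 9.02 and 9.38 in 3D, and 9.31, 8.99 and 8.81 in 2D. The low value of 3DBR replicate 2 set its difference of -0.78 (SE 0.36) against 2D and -0.77 (SE 0.36) against 3D, since both were -0.29 without that array.

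Complex III oxidises ubiquinol and reduces cytochrome c. Of its 9 genes 7 were lower in each comparison with 2D, with medians of -0.26 in 3DBR and -0.26 in 3D, and 0.10 between 3DBR and 3D. The mean level was 10.65 and 10.82 in 3DBR, 10.66, 10.74 and 10.80 in 3D, and 11.29, 11.02 and 10.99 in 2D. UQCRH, the hinge protein that holds cytochrome c1, had 11.95 and 11.72 in 3DBR, 10.97, 12.30 and 12.66 in 3D, and 13.39, 12.53 and 13.08 in 2D. It had the lowest level on 3D replicate 1, the 3DBR arrays lay below all 2D arrays, and 3D replicate 3 overlapped 2D replicate 2. The differences against 2D were -1.16 (SE 0.48) for 3DBR and -1.02 (SE 0.43) for 3D, at adjusted p of 0.964 and 0.94 by limma. With chip as a block the 3DBR value turned to 0.34, and without 3D replicate 1 the 3D value was -0.52. A second UQCRH probe gave -0.41 and 0.00 at those comparisons, so the probes disagree in 3D.

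UQCRHL, a near-identical copy of UQCRH whose signal may be shared with it, had 10.85 and 10.93 in 3DBR, 11.28, 11.41 and 11.66 in 3D, and 11.97, 11.56 and 11.07 in 2D. The 3DBR arrays were the lowest, with -0.65 (SE 0.29) against 2D and -0.56 (SE 0.29) against 3D. UQCR10, a small subunit of the complex, had 9.06 and 9.35 in 3DBR, 9.30, 9.23 and 8.89 in 3D, and 10.38, 9.45 and 9.79 in 2D. All scaffold arrays were below the 2D arrays, and 2D replicate 1 was the highest. It differed by -0.73 (SE 0.29) in 3D, or -0.47 without 2D replicate 1, and by -0.66 (SE 0.32) in 3DBR. The other UQCR10 probes gave -0.09 and -0.34 in 3D and 0.27 and -0.38 in 3DBR. UQCR11, another small subunit, had 7.64 and 7.81 in 3DBR, 7.52, 7.26 and 7.36 in 3D, and 8.05, 7.96 and 7.57 in 2D. Its 3D arrays lay below both other groups, by -0.48 (SE 0.23) against 2D, and 3DBR was 0.34 (SE 0.26) above 3D.

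Of the core proteins of complex III, UQCRC1 overlapped between formats, while UQCRC2 was lowest on the 3DBR arrays. UQCRC1 had 11.87 and 12.24 in 3DBR, 12.33, 11.76 and 11.75 in 3D, and 11.32, 11.86 and 12.23 in 2D, a difference of 0.25 (SE 0.32) in 3DBR and 0.15 (SE 0.29) in 3D. The 3DBR value was -0.33 with chip as a block, and the 3D value was -0.09 without 2D replicate 1. UQCRC2 had 8.42 and 8.58 in 3DBR, 8.70, 8.61 and 9.13 in 3D, and 8.81, 8.79 and 8.68 in 2D. Its 3DBR arrays lay below all others, by -0.26 (SE 0.26) against 2D and -0.31 (SE 0.26) against 3D, the second -0.15 without 3D replicate 3. CYC1, cytochrome c1, had 12.46 and 13.18 in 3DBR, 12.90, 12.39 and 12.61 in 3D, and 13.23, 12.42 and 13.03 in 2D, with overlap in every comparison.

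Complex IV reduces oxygen to water. It had 6 of 11 genes lower in 3DBR and 9 of 11 in 3D against 2D, with medians of -0.13 and -0.16, and the highest of the medians between 3DBR and 3D (0.19, with 2 of 11 lower). In 3DBR against 2D the median turned to 0.33 with chip as a block, a term that rests on 3D replicate 1. The mean level was 12.32 and 12.43 in 3DBR, 11.98, 12.33 and 12.35 in 3D, and 12.34, 12.44 and 12.55 in 2D. The lowest array, 3D replicate 1, had the lowest level of all 8 arrays in 7 of 11 genes. Without it the median of 3DBR against 3D was 0.05, and without 2D replicate 3 the median of 3D against 2D was -0.00.

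COX4I1, the common form of a subunit that regulates the enzyme, had 14.34 and 14.34 in 3DBR, 14.58, 14.35 and 14.32 in 3D, and 13.86, 14.30 and 14.54 in 2D. Its differences were 0.11 (SE 0.23) in 3DBR and 0.19 (SE 0.21) in 3D, inside the spread of the 2D arrays. COX4I2, its hypoxia-linked alternative form, was not detected on any array. COX7B, a small subunit needed for assembly, had 9.66 and 9.55 in 3DBR, 8.66, 10.23 and 10.09 in 3D, and 10.50, 10.61 and 9.91 in 2D. The 3DBR arrays lay below the 2D arrays by -0.74 (SE 0.47), but the value was 0.76 with chip as a block, and the 3D difference of -0.68 (SE 0.42) was -0.18 without 3D replicate 1.

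COX7A2, the liver form of the subunit whose muscle form COX7A1 was not detected, had 12.78 and 13.26 in 3DBR, 12.52, 12.98 and 12.96 in 3D, and 13.26, 13.24 and 13.32 in 2D. The 3D arrays lay below 2D by -0.46 (SE 0.21), and 3DBR spanned the gap. COX6B1, a subunit that faces the intermembrane space, had 12.61 and 12.64 in 3DBR, 12.04, 12.69 and 12.57 in 3D, and 12.73, 12.94 and 12.96 in 2D. All scaffold arrays were below 2D, by -0.25 (SE 0.24) in 3DBR and -0.44 (SE 0.22) in 3D. COX5B, a zinc-binding subunit on the matrix side, had 13.43 and 13.80 in 3DBR, 12.77, 13.40 and 13.50 in 3D, and 13.11, 13.34 and 13.70 in 2D. It differed by 0.39 (SE 0.29) in 3DBR against 3D, or 0.16 without 3D replicate 1.

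The subunit COX6A exists in a liver and a heart form. COX6A1, the liver form, had 11.68 and 11.65 in 3DBR, 11.58, 11.73 and 11.61 in 3D, and 11.46, 11.83 and 12.12 in 2D. COX6A2, the heart and muscle form, had 7.10 and 7.05 in 3DBR, 6.85, 6.85 and 6.55 in 3D, and 6.40, 6.82 and 6.57 in 2D. COX6A1 overlapped throughout, with -0.14 (SE 0.24) in 3DBR and -0.16 (SE 0.21) in 3D against 2D. COX6A2 was highest on the 3DBR arrays, by 0.48 (SE 0.23) against 2D and 0.32 (SE 0.23) against 3D, near the lowest level of any detected probe (6.75 to 6.94 by array).

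COX7A2L, which links complexes III and IV into supercomplexes and is counted in neither, had 10.80 and 11.38 in 3DBR, 10.62, 10.84 and 11.03 in 3D, and 11.56, 11.21 and 11.47 in 2D. The 3D arrays were all below 2D, by -0.58 (SE 0.23, adjusted p of 0.94 by limma), and 3DBR differed from 2D by -0.32 (SE 0.26), or -0.03 without 3DBR replicate 1 and -0.01 with chip as a block. COXFA4, formerly NDUFA4, is a complex IV subunit that the symbol rule does not take, and it had 12.24 and 12.21 in 3DBR, 12.39, 12.48 and 12.66 in 3D, and 13.00, 12.73 and 12.31 in 2D. Its paralogue COXFA4L2, formerly NDUFA4L2, is a target of hypoxia-inducible factor known to lower complex I activity. It had 12.71 and 11.24 in 3DBR, 11.86, 13.11 and 12.77 in 3D, and 5.73, 11.86 and 8.07 in 2D. The value on 2D replicate 1 lay below the lowest detected level of that array (6.75), so it is background. With it included, the SD of COXFA4L2 was 1.03 in 3DBR, 0.65 in 3D and 3.09 in 2D, and 2D replicate 2 came level with 3D replicate 1. The difference was 3.42 (SE 1.45) in 3DBR and 4.03 (SE 1.30) in 3D against 2D, at adjusted p of 0.964 and 0.94 by limma. Without 2D replicate 1 these were 2.01 and 2.62, and without 2D replicate 2 they were 5.08 and 5.68.

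**Figure D3:**
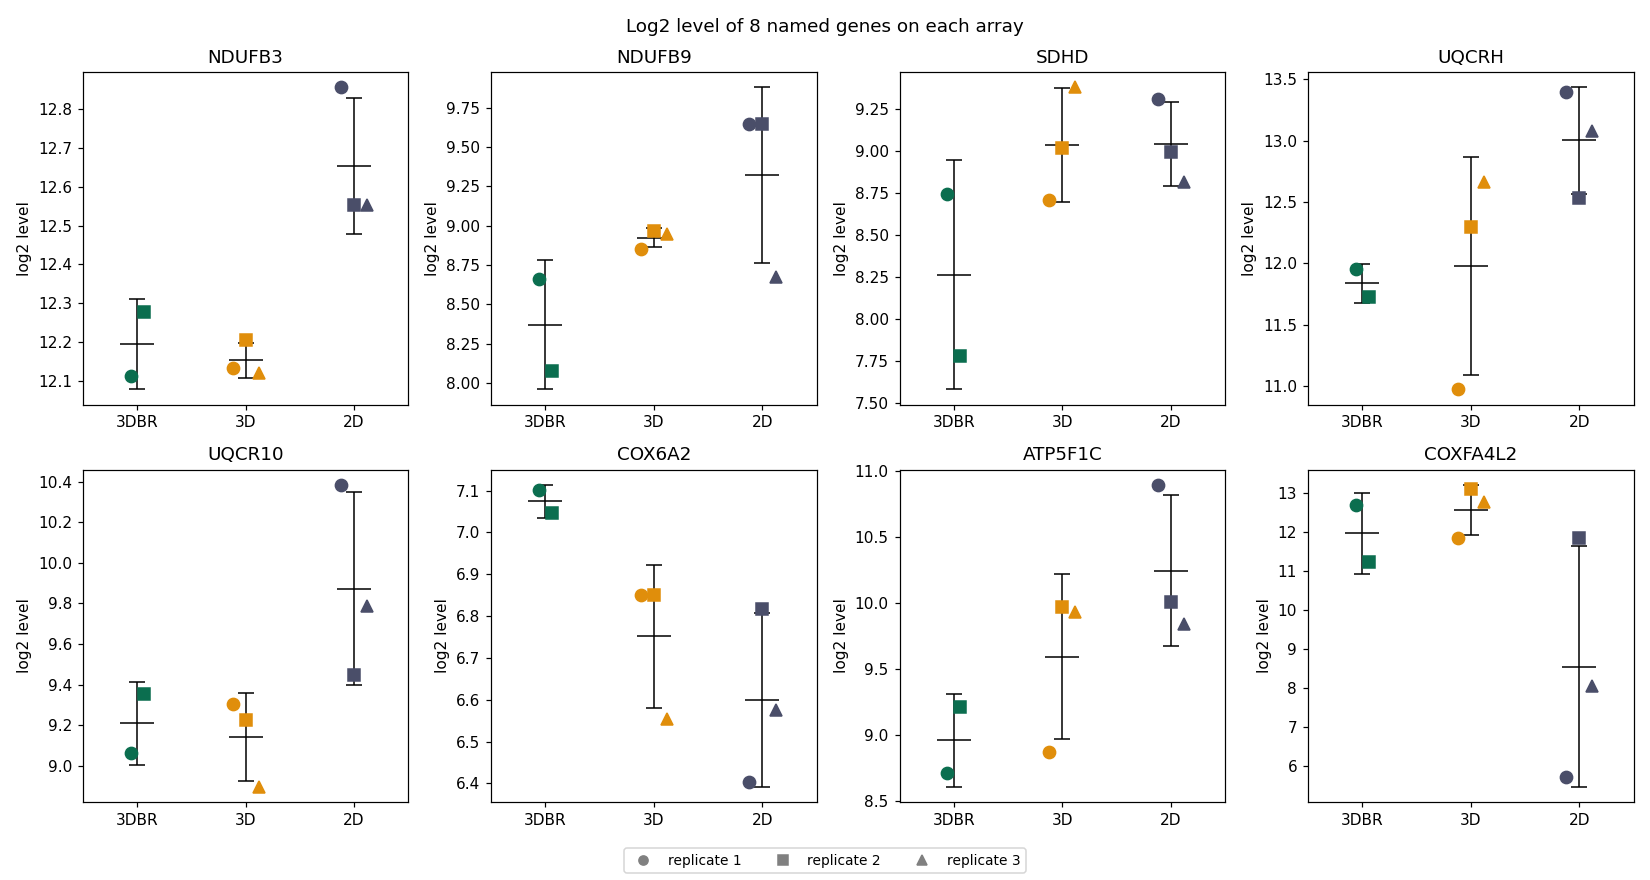
Log2 level of NDUFB3, NDUFB9, SDHD, UQCRH, UQCR10, COX6A2, ATP5F1C and COXFA4L2 on each array, with 3DBR left, 3D in the middle and 2D right. Points are arrays, lines are group means and bars are ±1 SD, and the y axis differs by panel. NDUFB3 separates scaffold (12.11 to 12.28) from monolayer (12.55 to 12.86), while COXFA4L2 runs from 5.73 to 11.86 within 2D. The 5.73 lies below the lowest detected level of its array (6.75).

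Complex V, which makes ATP, had 15 of 17 genes lower in 3DBR and 16 of 17 in 3D against 2D, with medians of -0.25 and -0.31, and a median of 0.06 between 3DBR and 3D. The mean level was 11.79 and 12.05 in 3DBR, 11.83, 11.83 and 11.92 in 3D, and 12.27, 12.11 and 12.20 in 2D. The 3D arrays lay within 0.1 of each other and below 2D, and 3DBR replicate 2 came closest to the 2D range. Both 3DBR arrays were below all 2D arrays for 47.1% of complex V genes, and the 3D arrays for 41.2%, where 10.1% and 5.18% of all genes were.

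ATP5F1C, the central rotor shaft gamma, had 8.71 and 9.21 in 3DBR, 8.87, 9.97 and 9.93 in 3D, and 10.90, 10.00 and 9.84 in 2D. The 3 arrays of the chip with both 3DBR samples were the lowest. It had the most negative difference of any member in 3DBR against 2D, -1.29 (SE 0.45, 95% interval -2.30 to -0.27, adjusted p of 0.964 by limma), which was -0.21 with chip as a block. In 3DBR against 3D it was -0.63 (SE 0.45), and 0.09 with chip as a block. The catalytic head, where ATP is made, is built from alpha and beta subunits. ATP5F1A, subunit alpha, had 13.56 and 14.01 in 3DBR, 13.78, 13.47 and 13.65 in 3D, and 13.96, 13.77 and 13.94 in 2D. ATP5F1B, the catalytic subunit beta, had 14.68 and 15.04 in 3DBR, 14.60, 14.36 and 14.62 in 3D, and 14.75, 14.81 and 14.84 in 2D. The 3D arrays of ATP5F1B were below both other groups, by -0.27 (SE 0.17) against 2D, with 3DBR 0.33 (SE 0.19) above 3D, or 0.15 without 3DBR replicate 2.

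ATP5PO, the stalk subunit that confers oligomycin sensitivity, had 11.83 and 12.05 in 3DBR, 12.04, 12.13 and 12.07 in 3D, and 12.74, 12.30 and 12.32 in 2D. All scaffold arrays lay below 2D, by -0.51 (SE 0.22) in 3DBR and -0.37 (SE 0.20) in 3D. ATP5MG, a membrane subunit where ATP synthase dimers meet, had 12.87 and 13.03 in 3DBR, 12.85, 12.87 and 12.99 in 3D, and 13.26, 13.20 and 13.37 in 2D. Here too no array overlapped, with -0.33 (SE 0.18) in 3DBR and -0.37 (SE 0.16) in 3D. A dimmer ATP5MG probe gave -0.58 and -0.24, and there both scaffold groups overlapped 2D. Likewise ATP5MF, another membrane subunit, differed by -0.25 (SE 0.19) in 3DBR and -0.31 (SE 0.17) in 3D. Its other probe gave -0.08 and -0.19, and there 3DBR replicate 2 overlapped 2D. ATP5F1E, the epsilon subunit of the shaft, differed by -0.38 (SE 0.33) and -0.64 (SE 0.30).

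The ring of subunit c is encoded by 3 genes that give the same mature protein. ATP5MC1 had 11.12 and 11.48 in 3DBR, 12.22, 11.24 and 10.78 in 3D, and 11.92, 11.80 and 11.77 in 2D. ATP5MC2 had 12.03 and 12.13 in 3DBR, 12.21, 12.08 and 12.41 in 3D, and 12.21, 12.39 and 12.68 in 2D. For each of these the 3DBR arrays lay below the 2D arrays, by -0.53 (SE 0.39) and -0.34 (SE 0.22), and the 3D arrays overlapped 2D. The ATP5MC1 value was -1.74 with chip as a block. A dimmer ATP5MC1 probe gave -0.31 in 3DBR against 2D with overlap, since 3DBR replicate 2 had 9.23 and 2D 8.84, 8.01 and 8.97. ATP5MC3 had 6.47 and 7.42 in 3DBR, 6.26, 5.91 and 6.28 in 3D, and 7.46, 6.71 and 7.07 in 2D. It was detected on 1 array of 3DBR, 0 of 3D and 2 of 2D, so the level in 3D is only bounded: 2D was at least 1.16-fold higher and 3DBR at least 1.05-fold higher than 3D. The fitted differences were -0.93 (SE 0.31, adjusted p of 0.94 by limma) for 3D against 2D and 0.79 (SE 0.34) for 3DBR against 3D, the second 0.32 without 3DBR replicate 2.

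Complex V genes with a level above 2D were ATP5F1D and ATP5F1B in 3DBR and ATP5IF1 in 3D, each by less than its SE. Single arrays set these signs: without 3DBR replicate 2 ATP5F1D was -0.10 and ATP5F1B -0.12, and without 2D replicate 1 ATP5IF1 was -0.15. ATP5F1D, subunit delta of the shaft, had 12.96 and 13.48 in 3DBR, 12.87, 13.02 and 13.14 in 3D, and 12.97, 13.11 and 13.09 in 2D, a difference of 0.16 (SE 0.22) in 3DBR. ATP5IF1, the inhibitor that stops the enzyme from running backwards, had 11.61 and 11.27 in 3DBR, 11.35, 11.72 and 11.79 in 3D, and 11.04, 11.70 and 11.83 in 2D. It differed by 0.09 (SE 0.26) in 3D and -0.09 (SE 0.29) in 3DBR, with all groups overlapping.

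**Figure D4:**
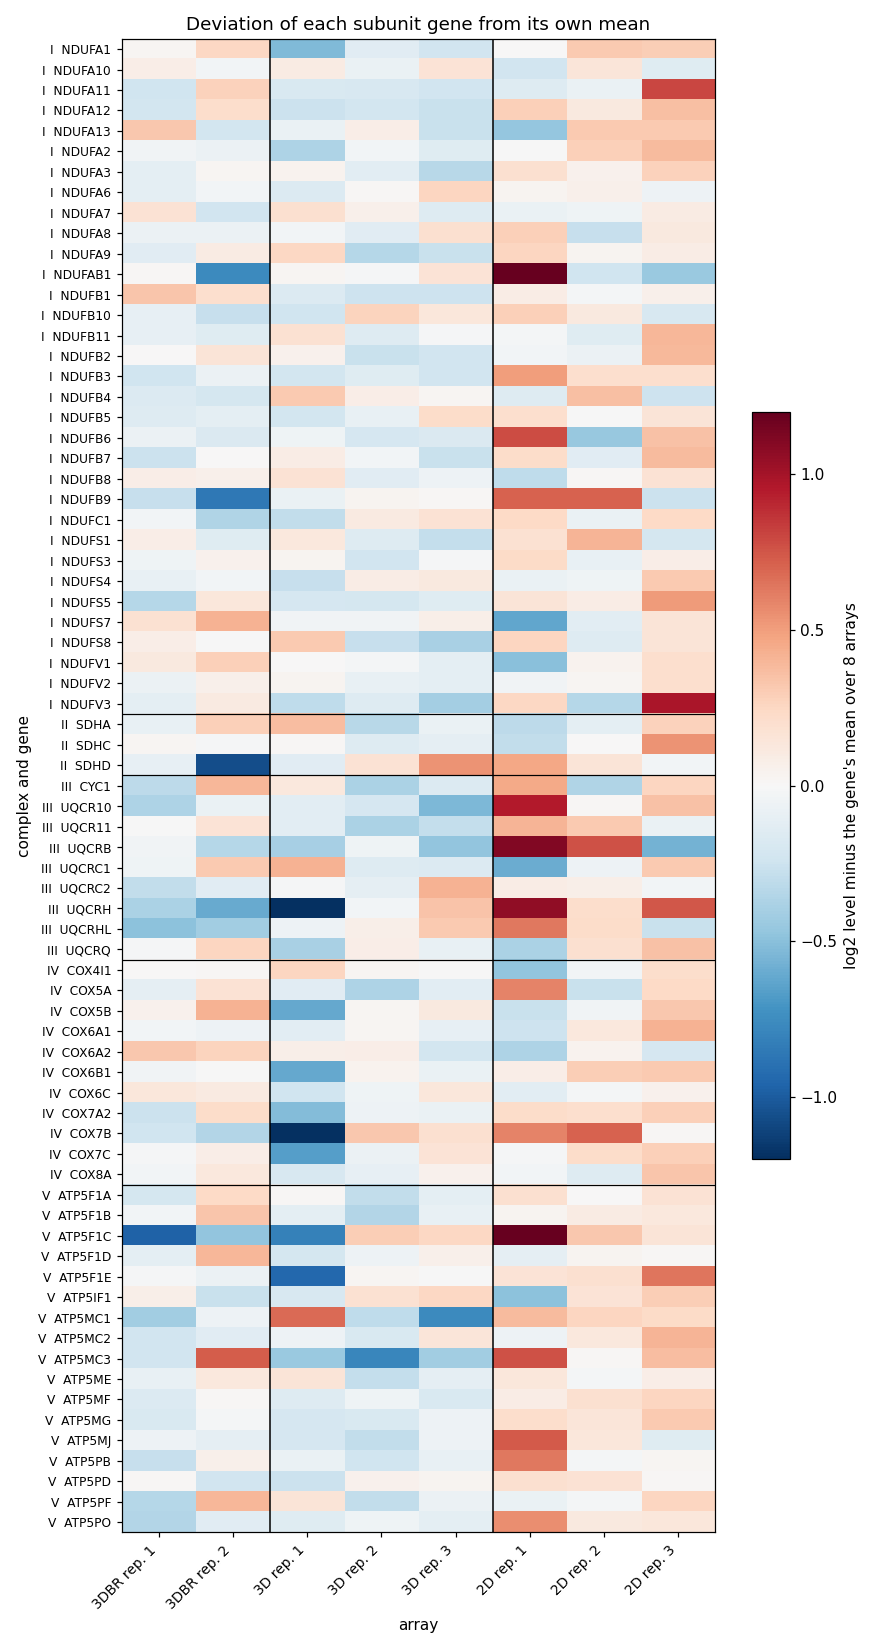
Deviation of each of 73 subunit genes (rows, by complex) from its own mean over the 8 arrays (columns), in log2 units, with red higher and blue lower. On 3DBR replicate 1, 19 of all 74 members lie above their own mean, against 60 on 2D replicate 3, and single genes such as UQCRH and COX7B on 3D replicate 1 stand out in blue.

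By array, members above their own mean over all arrays numbered 19 and 37 of 74 in 3DBR, 25, 21 and 25 in 3D, and 46, 47 and 60 in 2D. The lowest level of a gene fell most often on 3D replicate 1 (19 genes), and the highest on 2D replicate 3 (24 genes) and 2D replicate 1 (22 genes). On 2D replicate 1, the array lowest in hepatocyte genes, 46 members lay above their own mean and 11 had their lowest level of all arrays. How hepatocyte content relates to subunit levels was not tested.

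Genes that build or regulate the chain were taken from lists of related genes, chosen with earlier results of these data known. The genes named were mostly picked by smallest p per comparison, so a lack of overlap partly follows from that pick. Of 48 assembly factors, 31 were lower in 3DBR and 41 in 3D against 2D, with medians of -0.07 and -0.23, and 34 were higher in 3DBR than in 3D (median 0.14), with 0 called by limma throughout. Both 3DBR arrays lay below all 2D arrays for 11 of the 48 (10.1% of all genes) and above for 3 (10.8%). All 3D arrays lay below 2D for 8 (5.18% of all genes) and above for 0 (4.96%). UQCC5, an assembly factor of complex III, had 9.68 and 10.00 in 3DBR, 9.10, 9.07 and 8.82 in 3D, and 10.21, 9.78 and 10.45 in 2D. The 3D arrays were below both other groups, by -1.15 (SE 0.25, adjusted p of 0.94) against 2D, and 3DBR was 0.84 (SE 0.28, adjusted p of 1) above 3D. SDHAF4, which helps flavinated SDHA enter complex II, had 6.91 and 6.95 in 3DBR, 6.29, 6.86 and 6.38 in 3D, and 7.39, 7.43 and 7.33 in 2D. COX16, an assembly factor of complex IV, had 10.82 and 10.57 in 3DBR, 10.85, 10.84 and 10.65 in 3D, and 11.48, 11.32 and 11.34 in 2D. Neither overlapped between scaffold and monolayer, and in 3D against 2D COX16 differed by -0.60 (SE 0.19). SDHAF4 was detected on no 3D array, so its level in 2D is given as at least 1.43-fold higher than in 3D (fitted log2 difference -0.87, SE 0.22, limma adjusted p of 0.94). NDUFAF2, which assists complex I assembly, differed by -0.94 (SE 0.36) in 3DBR and -0.82 (SE 0.32) in 3D, again without overlap.

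Regulators of mitochondrial biogenesis were nearer to the rest of the genes, with medians over 15 genes of -0.06 in 3DBR and -0.08 in 3D against 2D, and 0 called by limma. PPARGC1A, the coactivator PGC-1alpha, had 8.33 and 7.88 in 3DBR, 8.03, 8.35 and 8.22 in 3D, and 6.66, 8.22 and 7.99 in 2D. Its low value on 2D replicate 1 was outside an otherwise shared range and below the lowest detected level of that array (6.75). ESRRA, a nuclear receptor that partners with it, had 8.77 and 9.30 in 3DBR, 9.42, 9.04 and 8.51 in 3D, and 8.66, 8.99 and 7.98 in 2D. TFAM, which packs and transcribes mitochondrial DNA, had 8.29 and 8.53 in 3DBR, 9.83, 8.30 and 8.53 in 3D, and 10.07, 8.32 and 8.42 in 2D. The high TFAM values were on 3D replicate 1 and 2D replicate 1, the arrays high in genes of dividing cells. SSBP1, which coats single-stranded mitochondrial DNA, was lower in every scaffold array than in 2D, by -0.63 (SE 0.27) in 3DBR and -0.36 (SE 0.24) in 3D. GABPA, the factor named above, differed by -0.34 (SE 0.24) in 3DBR against 2D, with no overlap.

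Citric acid cycle enzymes outside complex II (17 genes) had medians of -0.05 in 3DBR and -0.11 in 3D, with 9 and 12 lower. SUCLA2, a subunit of succinyl-CoA ligase, differed by -0.81 (SE 0.38) in 3DBR and -0.75 (SE 0.34) in 3D, DLD, the dihydrolipoamide dehydrogenase, by -0.60 (SE 0.27) in 3DBR, and DLAT, of the pyruvate dehydrogenase complex, by -0.78 (SE 0.33) in 3D. IDH2, the mitochondrial isocitrate dehydrogenase that uses NADP, had 11.49 and 11.30 in 3DBR, 11.94, 11.57 and 11.89 in 3D, and 9.77, 11.35 and 11.54 in 2D. Its 3D arrays lay above 2D, by 0.91 (SE 0.43), and 2D replicate 1 was far below the rest. PC, pyruvate carboxylase, differed by 0.84 (SE 0.51) in 3D with overlap, its highest level being on 3D replicate 1. Genes of the mitochondrial membranes outside the chain (17 genes) had medians of -0.20 in 3DBR and -0.20 in 3D, with 15 and 13 lower. IMMT, a scaffold of cristae junctions, differed by -0.37 (SE 0.22) in 3DBR. CHCHD3, part of the complex that shapes cristae, differed by -0.50 (SE 0.34) in 3DBR and -0.66 (SE 0.31) in 3D. Between 3DBR and 3D the medians were 0.12 for the cycle and -0.05 for the membrane genes, and no gene of either list was called by limma.

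Electron carriers and enzymes that feed the chain beside the complexes (18 genes) had medians of 0.03 in 3DBR and -0.20 in 3D against 2D, with 6 and 16 lower, and 0.25 between 3DBR and 3D. CYCS, cytochrome c itself, had 6.29 and 6.85 in 3DBR, 5.94, 6.31 and 6.43 in 3D, and 7.23, 6.82 and 6.72 in 2D. It was detected on 1 array of 3DBR, 0 of 3D and 2 of 2D, so 2D is given as at least 1.04-fold higher than 3D (fitted log2 difference -0.70, SE 0.25, limma adjusted p of 0.94). UCP2, an uncoupling protein also made by macrophages, had 8.96 and 7.56 in 3DBR, 5.64, 7.13 and 6.72 in 3D, and 5.72, 8.88 and 6.68 in 2D. Its 2 lowest values were on the arrays low in macrophage genes, 3D replicate 1 and 2D replicate 1. On these and on 3D replicate 3 and 2D replicate 3, UCP2 lay below the array's lowest detected level (6.75 to 6.89). The fitted difference of 1.76 (SE 0.88) between 3DBR and 3D uses such values and was not called. COQ2, which makes the ubiquinone ring precursor, differed by -0.54 (SE 0.26) in 3D against 2D and 0.44 (SE 0.29) in 3DBR against 3D, with no overlap in either.

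Genes through which hypoxia acts on mitochondria (7 tested) had medians of 0.01 in 3DBR and 0.23 in 3D against 2D, with 3 lower in each, and 0 called by limma. BNIP3, a mitophagy receptor induced by hypoxia-inducible factor, had 12.96 and 12.47 in 3DBR, 12.88, 13.04 and 13.01 in 3D, and 11.65, 12.45 and 12.21 in 2D. All scaffold arrays were above 2D, by 0.61 (SE 0.28) in 3DBR and 0.87 (SE 0.25) in 3D. HIGD1A, a small inner membrane protein induced by hypoxia, went the other way in 3D, by -0.74 (SE 0.29). HIF1A, the regulated subunit of the factor, had 6.77 and 8.06 in 3DBR, 5.99, 8.03 and 6.82 in 3D, and 8.41, 8.01 and 8.75 in 2D. On 3DBR replicate 1, 3D replicate 1 and 3D replicate 3 it lay below the array's lowest detected level (6.79, 6.81 and 6.86). The fitted difference of -1.44 (SE 0.54, adjusted p of 0.94 by limma) in 3D against 2D thus uses values below detection. PDK1, a kinase that holds pyruvate out of the citric acid cycle under hypoxia, did not pass the detection filter.

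Members not tested were 10, among them COX4I2, COX6B2, COX7A1, COX7B2 and COX8C, forms of complex IV subunits known from muscle, testis or other tissues, and NDUFA5, NDUFC2, NDUFS6, ATP5MK and NDUFB2-AS1, an antisense RNA. Each was detected on 0 arrays, except COX6B2 on 1. A probe below detection says only that its signal did not exceed the negative controls. Of the tested members 17 had several kept probes, whose signs disagreed for 2 genes in 3DBR against 2D, 4 in 3D against 2D and 8 in 3DBR against 3D.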

How the data were processed

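For 8 arrays the authors deposited a bead intensity and a detection p-value per probe, per the file headers, for 47323 probes. Medians of the deposited intensity ran from 279 to 386, so arrays had not been brought to a common scale. A further deposited table holds the authors' processed values, on a scale that the numbers show to be log2 with an offset taken off. It ranked probes as the intensities did (Spearman 1) with a slope of 1.02 to 1.04 among bright probes. How it was normalised is not stated in the labels, and it was used only in an alternative.

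The intensities went through normexp background correction in limma 3.58.1 (R 4.3.3; offset 16, control spread inferred from detection p-values), followed by quantile normalisation and log2. Arrays detected 29.7% to 34.3% of the probes. Symbols came from the platform annotation updated through RefSeq. Probes with a detection p under 0.05 on at least 2 arrays were kept, and the brightest probe stood for a gene, giving 11031 genes. All 8 arrays entered a linear model with a mean per group (lmFit, eBayes with an intensity trend, 5 residual degrees of freedom), tested two-sided with Benjamini-Hochberg adjustment over all genes at 0.05, and the fit was tested on simulated data. Arrays limit the precision by their number: the median SE of a member's log2 fold change was 0.23 in 3D against 2D and 0.25 in the comparisons with 3DBR. Replicate numbers follow accession order and pair nothing. Whether the samples of a group were separate donors is not given per sample, so p-values measure only the spread between these samples, which may be technical. For a gene detected on no array of a group, a fold is a bound that uses, per array, its own value or the lowest detected level, whichever is higher.

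The rule for members used gene symbols and no measured value, but members and lists were set with earlier results of these data known. Lists get counts and medians, with no test. Members named with values were those with the smallest p and the extreme fold changes per complex and comparison, plus set core subunits and isoforms. Alternatives were other background corrections, scalings, filters, probe choices, array weights, variance priors, chip as a block and arrays left out.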

Additional observations from a re-analysis of the deposited data

How the results depend on the processing

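Under 20 alternatives limma called 0 members in each comparison, and the median over all members kept its sign in 3DBR against 2D (-0.23 to -0.11) and in 3D against 2D (-0.41 to -0.18). In 3DBR against 3D it changed sign in 1 of 20, without 3DBR replicate 2. Complex medians changed sign as follows: complex II in every comparison, complex III in 3DBR against 3D, complex IV in 3DBR against 2D and complex V in 3DBR against 3D. The causes were not tested. With 2 or 3 arrays a group, no member's difference can be told from the spread between arrays after adjustment. Probes near background (NDUFB1, ATP5MC3, COX6A2, CYCS) carry little signal. HIF1A, UCP2, PPARGC1A and COXFA4L2 lay below the lowest detected level on part of the arrays.

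Median scaling gave, in 3D against 2D, -0.41 over all members and -0.37, -0.21, -0.46, -0.40 and -0.55 for complexes I to V, while the median of all genes was -0.13. In 3DBR against 3D it gave 0.26 over all members and 0.25, 0.28, 0.27 and 0.23 for complexes I, II, III and V, with all genes at 0.12. The authors' deposited table gave -0.10 for complex I in 3DBR against 2D, then -0.32 over all members, -0.28 for complex I and -0.32 for complex IV in 3D against 2D, and 0.21 over all members, 0.20, 0.25 and 0.21 for complexes I, II and V in 3DBR against 3D. Chip as a block gave, in 3DBR against 2D, -0.22 over all members, -0.23, -0.28 and 0.33 for complexes I, II and IV, in 3D against 2D -0.15 and -0.39 for complexes II and III, and in 3DBR against 3D -0.27, -0.080 and 0.37 for complexes II, III and IV. Array weights gave -0.29 for complex II in 3DBR against 2D and -0.21 and -0.26 for complexes I and II in 3D against 2D. Testing every kept probe gave -0.21 for complex I in 3D against 2D.

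Without both 3D replicate 1 and 2D replicate 1, complex II was -0.27 in 3DBR against 2D and -0.29 in 3D against 2D, and complex I -0.21 in 3D against 2D. With each array left out in turn, the all-member median ran from -0.23 to -0.11 in 3DBR against 2D and from -0.014 to 0.12 in 3DBR against 3D. In 3DBR against 2D the ranges were -0.19 to -0.076 for complex I, -0.27 to 0.15 for II and -0.43 to -0.18 for III. In 3D against 2D they were -0.24 to -0.13 for complex I, -0.15 to 0.060 for II, -0.43 to -0.25 for III and -0.30 to -0.0042 for IV. In 3DBR against 3D they were -0.073 to 0.14 for complex II and -0.079 to 0.21 for III. Over all genes, the count called in 3DBR against 2D, 1 as reported, was 0 with probes detected on all 8 arrays or chip as a block, 2 with no detection filter or without both arrays that stand apart, and 0 to 1 with arrays left out in turn. In 3DBR against 3D it was 0, 0 and 2 under the same filters and block, and in 3D against 2D it was 1 without both arrays. No paired analysis was possible because the labels give no replicate numbers.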
